A study of Mus musculus with 94 samples.

Results

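The genes described here are 33 genes of the cell division cycle, 17 that act in DNA replication and 16 that act in mitosis, out of 13244 genes in a table of single mouse hematopoietic stem cells. They were listed by name, with earlier results of these data known, and all 33 were in the table. The replication set held the helicase subunits Mcm2, Mcm3, Mcm4, Mcm5, Mcm6 and Mcm7, the helicase cofactor Gins2, the loading factor Cdc6, the sliding clamp Pcna, the nucleotide enzymes Rrm1, Rrm2, Tyms and Dut, the repair enzyme Ung, the histone mRNA binding protein Slbp, and the chromatin factors Uhrf1 and Hells. The mitosis set held Mki67, Top2a, Ccna2, Ccnb1, Ccnb2, Cdk1, Aurkb, Birc5, Cdc20, Ube2c, Plk1, Bub1, Nusap1, Tpx2, Kif11 and Cenpf.

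The study compared 46 cells labelled Ski-KO with 48 cells labelled Ski-WT. Ski is a transcriptional co-repressor that acts on Smad proteins. All 94 cells were from C57BL/6 mice and were stem cells derived from fetal liver that had been transplanted for 6 months. They were enriched from crushed hindlimb marrow with CD117 beads, sorted for Sca-1+ and c-Kit+ staining within the Lineage- fraction, for Cd150+ and Cd45.2+, and against Cd48, separated on a Fluidigm C1 chip and sequenced from SMARTer cDNA, so both groups had passed through a transplanted host. The labels do not say how Ski was deleted, in which cells, or how many donors or hosts were used. Ski itself did not serve as a check of the labels, because it reached 5 TPM (a transcript level corrected for gene length and library size) in 3 Ski-KO and 6 Ski-WT cells, with means of 8.85 and 10.8 TPM. In the labels, 27 Ski-KO cells start with the prefix 051716 and 19 with 051816, while the Ski-WT names start with 061016. Genotype and prefix cannot be told apart. Because no animal is named, each genotype is 1 sample, and the values below are given without a test. Intervals are exact Clopper-Pearson 95% intervals and cover counting error over cells only. For a count of 0, the upper limit given is not such an interval but 3 cells of the total.

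A dividing cell copies its DNA in S phase and separates the copies in mitosis. Before S phase the MCM hexamer is loaded on origins, and during S phase it unwinds DNA while the clamp encoded by Pcna holds the polymerases in place. Genes of both sets are largely silent in resting cells and are turned on in successive waves, E2F factors driving the replication wave and the MMB and FOXM1 complexes the mitosis wave. Hematopoietic stem cells of the adult marrow are mostly in a resting state, G0, and divide rarely.

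The promoters of the members were compared first, because the waves are known to be set by short promoter elements. RefSeq start sites of the build GRCm38.p6 matched 28 of the 33 members, 13 of mitosis and 15 of replication. Ccna2, Aurkb, Tpx2, Mcm4 and Gins2 were without a match. In windows from 250 bases before to 50 bases after the start, 3 elements were searched on both strands. The CHR (cell cycle genes homology region), TTTGAA, is read by the MMB and DREAM complexes, CCAAT is read by the factor NF-Y, and the E2F letters searched were TTTCCCGC, TTTCGCGC, TTTGCCGC and TTTGGCGC. The CHR letters were in 9 of 13 mitosis genes (69.2%) and in 1 of 15 replication genes (6.67%, Mcm2), compared with 20.2% of 27025 genes with a promoter. E2F letters had the opposite distribution, with 1 of 13 mitosis genes (7.69%, Cdk1) and 7 of 15 replication genes (46.7%) compared with 2.6% of all genes. CCAAT was in 11 of 13 mitosis genes (84.6%) and 10 of 15 replication genes (66.7%), compared with 41.1%. A match describes letters in a window and is not a measured binding site, and a window without a match says nothing about the factor.

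The 250 bases before the start are shown for Top2a, Mki67 and Cdk1, the mitosis genes detected in the most cells, and for Mcm6, Pcna and Tyms, replication genes detected in many cells. All 6 genes lie on the minus strand, and each sequence is printed 5′ to 3′ in the direction of transcription. Capitals mark the CHR, CCAAT and E2F letters on either strand. The windows are chr11:99024190-99024439 for Top2a, chr7:135716380-135716629 for Mki67, chr10:69352913-69353162 for Cdk1, chr1:128359706-128359955 for Mcm6, chr2:132253181-132253430 for Pcna and chr5:30073626-30073875 for Tyms.
Top2a: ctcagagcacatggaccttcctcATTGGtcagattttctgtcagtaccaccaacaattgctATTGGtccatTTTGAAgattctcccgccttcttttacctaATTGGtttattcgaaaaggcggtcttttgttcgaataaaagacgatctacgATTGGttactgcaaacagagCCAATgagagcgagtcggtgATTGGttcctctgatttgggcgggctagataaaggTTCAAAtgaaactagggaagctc
Mki67: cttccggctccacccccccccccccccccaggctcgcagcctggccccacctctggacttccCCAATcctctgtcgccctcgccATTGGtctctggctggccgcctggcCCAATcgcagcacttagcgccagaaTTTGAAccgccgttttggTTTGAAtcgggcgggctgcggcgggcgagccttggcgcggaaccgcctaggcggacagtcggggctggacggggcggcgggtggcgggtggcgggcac
Cdk1: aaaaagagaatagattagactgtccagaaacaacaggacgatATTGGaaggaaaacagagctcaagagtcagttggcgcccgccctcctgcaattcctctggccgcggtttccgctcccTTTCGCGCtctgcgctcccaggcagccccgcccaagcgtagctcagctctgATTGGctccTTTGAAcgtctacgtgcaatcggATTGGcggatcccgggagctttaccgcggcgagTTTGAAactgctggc
Mcm6: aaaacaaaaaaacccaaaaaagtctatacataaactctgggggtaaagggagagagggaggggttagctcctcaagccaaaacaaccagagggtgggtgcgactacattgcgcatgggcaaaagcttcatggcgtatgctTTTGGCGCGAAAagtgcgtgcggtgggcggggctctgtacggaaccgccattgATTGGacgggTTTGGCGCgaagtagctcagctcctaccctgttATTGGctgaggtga
Pcna: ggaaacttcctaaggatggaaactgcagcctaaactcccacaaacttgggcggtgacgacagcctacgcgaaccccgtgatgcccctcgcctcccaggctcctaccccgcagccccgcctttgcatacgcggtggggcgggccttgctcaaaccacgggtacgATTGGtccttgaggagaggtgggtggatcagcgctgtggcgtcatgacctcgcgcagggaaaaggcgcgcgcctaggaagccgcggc
Tyms: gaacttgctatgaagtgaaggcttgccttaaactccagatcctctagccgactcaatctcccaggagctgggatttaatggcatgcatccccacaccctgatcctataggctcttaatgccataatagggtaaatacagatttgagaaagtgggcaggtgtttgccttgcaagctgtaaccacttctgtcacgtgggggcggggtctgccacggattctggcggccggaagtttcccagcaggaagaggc

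Top2a held 2 CHR and 6 CCAAT matches, with the CHR nearest the start 23 bases before it. Mki67 held 2 CHR and 3 CCAAT matches. Cdk1, the kinase that drives entry into mitosis, held 2 CHR matches, 3 CCAAT matches and, 131 bases before the start, 1 E2F match. Mcm6 held 3 E2F matches, of which 2 overlap on opposite strands at 110 and 106 bases before the start, together with 2 CCAAT matches and no CHR. Pcna held 1 CCAAT match, and Tyms held none of the 3 elements in its window. Dut, which was detected in as many cells as Mcm6, also had none, and Mcm6 was preferred for display after the values were seen.

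Each cell was scored by how many members of each set it had at 5 TPM or more. A cell with at least 4 of the 16 mitosis genes (25%) is called mitosis-high, and a cell with at least 9 of the 17 replication genes (50%) is called replication-high. These states are ranges cut from a count of RNAs, not cell types, and the cell cycle position of the cells was not measured. Each member counts towards its own state, so the shares of members by state given below are fixed by this rule in part. Both limits fell in gaps of the data. No cell had exactly 4 mitosis genes and 2 Ski-KO cells had 3, while 4 cells had exactly 9 replication genes and none had 8.

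Most stem cells had few of these genes on. Of 94 cells, 63 (67.0%) were high in neither set, 18 (19.1%, interval 11.8 to 28.6) were replication-high only, 9 (9.57%) were high in both sets and 4 (4.26%) were mitosis-high only. In 48 of the 94 cells no mitosis gene reached 5 TPM, 24 of them Ski-KO and 24 Ski-WT. Silence of the replication set was rarer, since 2 cells, both Ski-WT, had none of its genes, and the median cell had 4 of 17 (range 0 to 17). Summed over the set, the replication genes had a median of 1144 TPM per cell (3 to 7221) and the mitosis genes one of 7.13 TPM (0 to 11926).

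**Figure D1:**
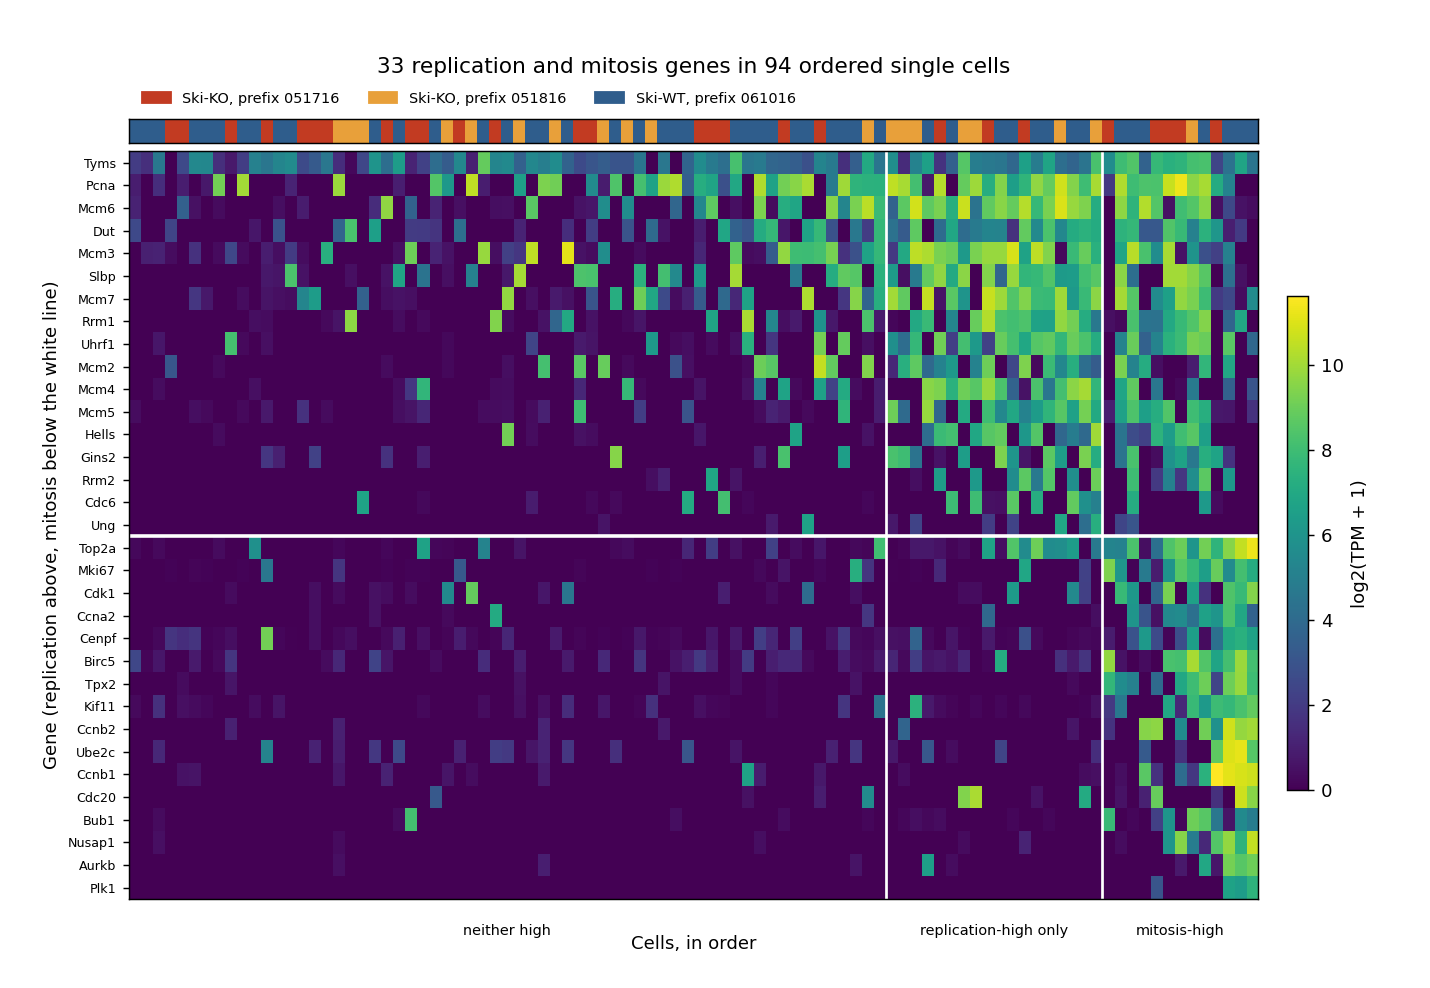
Level of each of the 33 genes (rows, log2(TPM + 1) by colour) in each of the 94 cells (columns), with the label prefix of each cell in the bar above. Cells below the mitosis limit are ordered by their number of replication genes and mitosis-high cells by their number of mitosis genes, with 63 cells high in neither set on the left, 18 replication-high only cells in the middle and 13 mitosis-high cells on the right, and the row of Tyms is lit across most columns.

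The cells were ordered from those with few genes on, through those with replication genes, to those with mitosis genes. The order was fixed by the counts themselves, carries no measured time and is a description. Replication-high only cells ran from 9 replication and 0 mitosis genes (Ski-KO cell 45) to 17 replication and 1 mitosis gene (Ski-KO cell 41). The 13 mitosis-high cells followed, by their number of mitosis genes. Cells with both sets on made up 9 of them, such as Ski-WT cell 27 with 17 replication and 5 mitosis genes, Ski-KO cell 42 with 14 and 10, and Ski-WT cell 16 with 9 and 14. The other 4 were mitosis-high only. Ski-WT cells 26 and 34 stood last, with all 16 mitosis genes on and 2 and 4 replication genes, and Ski-KO cell 17 had 11 mitosis and 3 replication genes. Ski-KO cell 21 stood first among the mitosis-high cells, with 5 mitosis genes (Mki67, Top2a, Birc5, Bub1 and Tpx2) and 1 replication gene.

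**Figure D2:**
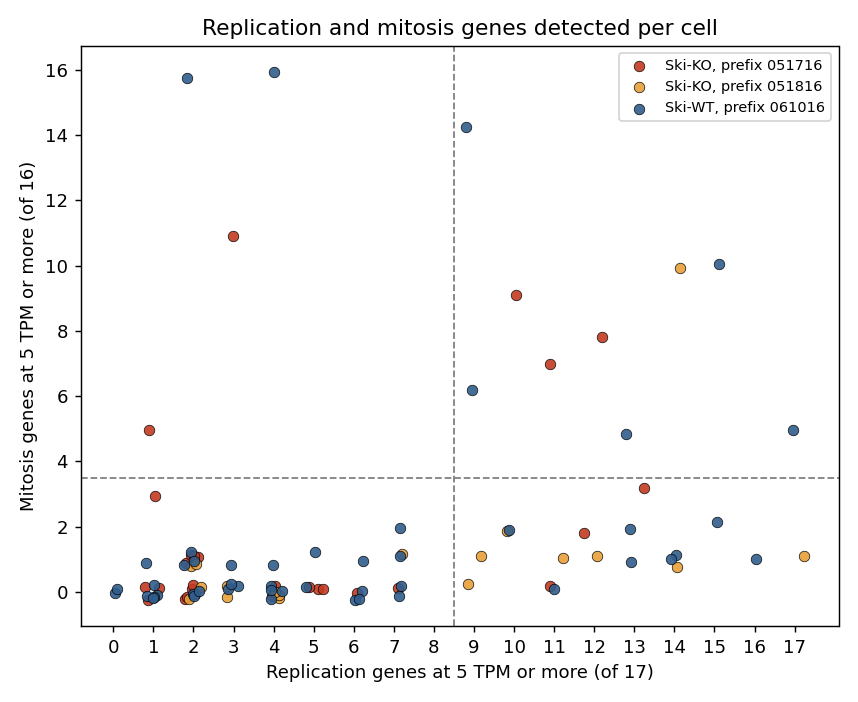
Number of mitosis genes (vertical axis, of 16) against number of replication genes (horizontal axis, of 17) at 5 TPM or more in each of the 94 cells, coloured by label prefix, with small random offsets to separate points and dashed lines at the limits of the states. The 4 cells in the upper left quadrant carry 5 to 16 mitosis genes with 1 to 4 replication genes, and the 9 cells in the upper right quadrant carry both sets.

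Cells of the high states also had more genes of any kind detected. The median number of genes at 5 TPM or more was 2115 in cells high in neither set (range 1154 to 2701), 2889 in replication-high only cells (2085 to 3460), 3147 in cells high in both (2496 to 3750) and 2668 in mitosis-high only cells (1958 to 3418). Across the 94 cells, the number of genes above 0 had a Pearson correlation of 0.67 with the replication count and 0.52 with the mitosis count, given as a description over cells. The part of detection depth in the states was not tested. In 1 alternative, a gene was counted as on when it was among the 1500 highest genes of its cell. Every cell then had the same number of genes on. The limit was also stricter than 5 TPM in most cells, since the median cell had 2302.5 genes at 5 TPM or more. By this rule 5 Ski-KO and 4 Ski-WT cells were mitosis-high and 6 and 7 were replication-high, counts that mix depth with a higher limit. No doublet caller was run on these 94 captured cells.

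The 6 MCM subunits form 1 ring, the replicative helicase. Mcm6 was detected in 42 of 94 cells, Mcm3 in 40, Mcm7 in 39, Mcm2 in 28, Mcm4 in 26 and Mcm5 in 25. All 6 were detected together in 8 cells, 6 of them replication-high only and 2 high in both sets. Cells high in neither set had a median of 1 subunit, and 23 of the 63 had none. Of the 4 mitosis-high only cells, 3 had no MCM subunit, and the fourth had Mcm4 and Mcm7. The subunits count towards the replication-high state, so their shares by state are descriptions. Mcm5 was the subunit least often on in cells high in neither set, in 3 of 63 compared with 15 of 18 replication-high only cells. Mcm6 was in 17 of the 63 and in 18 of 18. The highest level of a helicase subunit was 2236 TPM, for Mcm3 in Ski-WT cell 9. That cell was high in neither set, with 3 replication genes on and no other subunit on.

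Pcna was the second most widespread member, at 5 TPM or more in 56 of 94 cells. Its level ran from 0 to 2588 TPM with a median of 104. Where it was on, it was on strongly, with a median of 469 TPM in those 56 cells. It was detected in 30 of 63 cells high in neither set, in 16 of 18 replication-high only cells, in all 9 cells high in both, and in 1 of the 4 mitosis-high only cells. RefSeq lists the copies Pcna-ps1 and Pcna-ps2 of this gene, which are not rows of the table, so reads of the copies could have been counted in it and its level is uncertain.

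Among the nucleotide enzymes, Tyms, thymidylate synthase, was the most widespread member of all, at 5 TPM or more in 75 of 94 cells and above 0 in 91. It ran at a low level, with a lowest value of 0, a median of 21.8 and a highest of 465 TPM. Its share of cells hardly separated the states (47 of 63, 16 of 18, 9 of 9 and 3 of 4), but its level did, with medians of 13.2 TPM in cells high in neither set, 26.8 in replication-high only cells, 220 in cells high in both and 35.4 in mitosis-high only cells. The copy Tyms-ps stayed under 5 TPM in all cells, with a highest value of 2.5 TPM. Dut, which clears dUTP, was on in 42 cells at a median of 55.1 TPM where on. Rrm1 and Rrm2 encode the subunits of ribonucleotide reductase, the large Rrm1 subunit being long-lived and Rrm2 being made in S phase. Rrm1 was on in 32 cells and Rrm2 in 14, of which 13 were replication-high.

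The remaining replication genes were narrower. Slbp, which binds histone mRNAs, was on in 40 cells, Uhrf1, which maintains DNA methylation at forks, in 30, Hells, a chromatin remodeller, in 21 and Gins2, part of the active helicase, in 20. Uhrf1 was in all 9 cells high in both sets, in 15 of 18 replication-high only cells and in 5 of the 63 cells high in neither set. Hells was in 2 of those 63 cells and in 19 of the 27 replication-high cells. Uhrf1 and Hells are themselves counted in these states. Cdc6, which loads the MCM ring before S phase, was on in 12 cells and Ung, which removes uracil from DNA, in 5. The few cells with Ung had a median of 15 other replication genes on, and those with Rrm2 or Cdc6 one of 12.5, compared with 4 for Tyms and 6 for Pcna. Rare members were thus detected mostly in cells with many members.

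**Figure D3:**
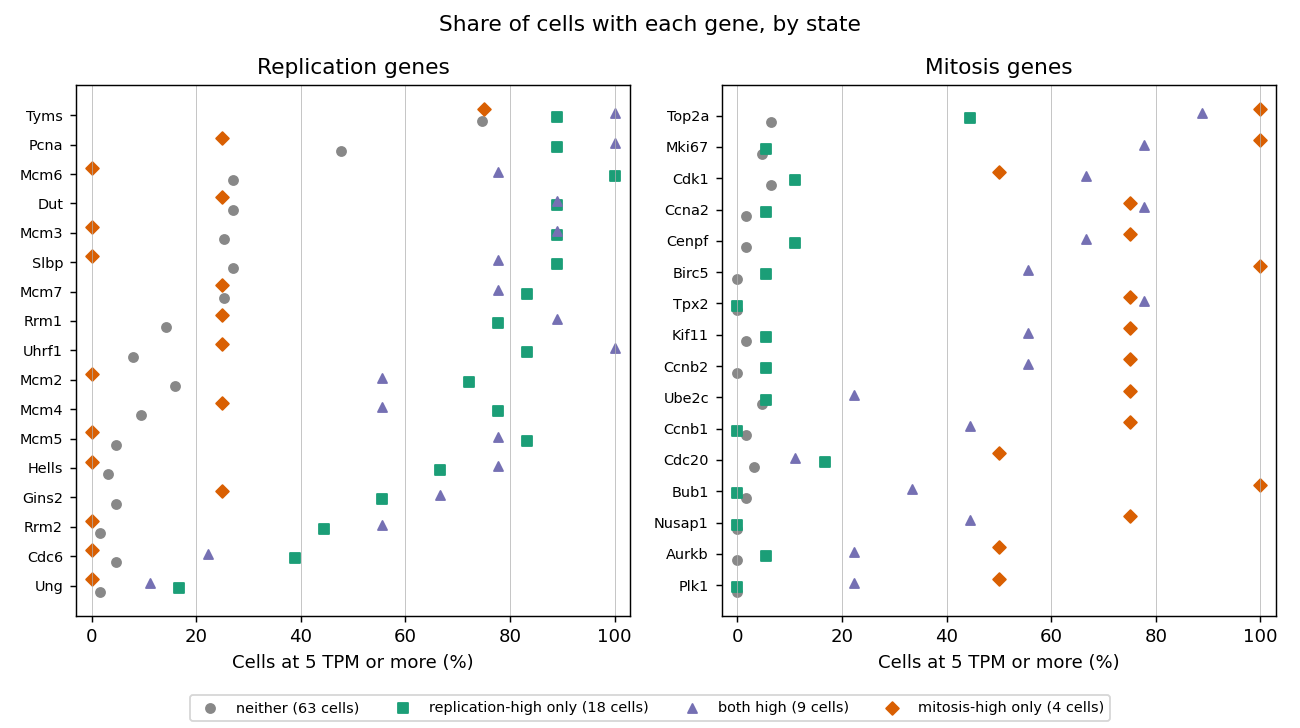
Share of cells (horizontal axis, percent) with each gene at 5 TPM or more in the 4 states, replication genes on the left and mitosis genes on the right, each ordered by the number of cells with the gene. The states were cut from these same genes, so the separation of the symbols is fixed by the rule in part. Tyms lies at 74.6% in the cells high in neither set, while Mcm6 and Mcm3 lie at 0 in the 4 mitosis-high only cells.

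In the mitosis set, the genes of DNA untangling and proliferation were the most widespread. Top2a, the topoisomerase that decatenates sister chromosomes, was on in 24 cells, and Mki67, which coats mitotic chromosomes, in 15. Top2a was also on in 8 of the 18 replication-high only cells, while no other mitosis gene was on in more than 3 of them. Its highest level, 2559 TPM, was in Ski-WT cell 34, one of the cells with all 16 mitosis genes. Cdk1 was on in 14 cells, of which 8 were mitosis-high. Its cyclin partners were Ccna2, on in 12 cells, Ccnb2 in 9 and Ccnb1 in 8.

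Ccnb1 had the highest level of any member, 3138 TPM in Ski-KO cell 17. It was at 2231 TPM in Ski-WT cell 16, at 1914 in Ski-WT cell 26 and at 1698 in Ski-WT cell 34, and the other 4 cells with Ccnb1 on had 16.3 to 401 TPM. Ski-KO cell 17 and Ski-WT cells 16, 26 and 34 are the cells with the most mitosis genes, 11 to 16. Ccnb2 was at 1738, 880 and 1026 TPM in Ski-WT cells 16, 26 and 34 but at 57.4 TPM in Ski-KO cell 17. RefSeq lists the copies Ccnb1-ps and Ccnb2-ps, which have no rows in the table, so both levels are uncertain.

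The chromosomal passenger genes were unequal. Birc5, survivin, was on in 10 cells and all 4 mitosis-high only cells had it, whereas Aurkb, the kinase of the complex, was on in 5 cells, all Ski-WT. Aurkb was at 581 TPM in Ski-WT cell 16, at 527 in cell 34, at 391 in cell 26 and at 126 in cell 38. It was on in 0 of 46 Ski-KO cells, which allows a share of up to 6.52%, while 5 of the 48 Ski-WT cells had it (10.4%, 3.47 to 22.7). The difference between these shares was not tested.

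Genes of the anaphase machinery and checkpoint followed. Cdc20, the activator of the anaphase-promoting complex, was on in 8 cells and did not follow the other mitosis genes. In 5 of those 8 cells no other mitosis gene was on, and its levels in the cells with all 16 genes were 1686 and 753 TPM. Ube2c, the ubiquitin-conjugating enzyme of the complex, was on in 9 cells and reached 2311 TPM in Ski-WT cell 26 and 2051 TPM in Ski-WT cell 16. Bub1, a kinase of the spindle checkpoint, was on in 8 cells, among them all 4 mitosis-high only cells. Plk1, the polo kinase, was on in 4 cells, with 181, 101, 86.0 and 7.29 TPM, and these cells had at least 6 other mitosis genes on.

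The spindle genes Tpx2 and Kif11 were on in 10 cells each, Cenpf, a kinetochore protein, in 12, and Nusap1, which bundles spindle microtubules, in 7. Nusap1 and Tpx2, which count towards the mitosis-high state, were on in no cell high in neither set and in no replication-high only cell. Every cell with Nusap1 had at least 7 other mitosis genes on, and every cell with Tpx2 at least 4. Cenpf was on at its highest level, 566 TPM, in Ski-KO cell 6, which had 1 replication and 3 mitosis genes, the fewest genes at 5 TPM of any cell (1154), and lay 1 gene under the limit of the mitosis-high state.

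A group of replication genes was on in cells without mitosis genes. In the 48 cells in which no mitosis gene was on, Tyms was on in 34 (70.8%), Pcna in 24 (50%), Mcm6 in 16 (33.3%), Slbp and Dut in 15 (31.2%) each and Mcm7 in 13 (27.1%). These 6 genes were the ones at or above 25% of such cells, and Mcm2 and Mcm3, with 11 cells (22.9%) each, lay just under it. The level of Pcna in those 24 cells was not low, with a median of 549 TPM compared with 412 TPM in the other cells with Pcna. Mcm6 had a median of 130 TPM in these cells compared with 536 in the others. Dut had 19.7 and 67.6 TPM, while Slbp was alike at 278 and 276 TPM. Of the mitosis genes, Top2a was on in 7 of 55 cells with no other mitosis gene (12.7%), Cdc20 in 5 of 53 (9.43%) and Cdk1 in 4 of 52. Tpx2, Kif11, Cenpf, Nusap1, Plk1 and Aurkb were on in none of their 48 such cells, which allows a share of up to 6.25%.

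Members of 1 set varied together across cells more than members of different sets. The median Pearson correlation of log2(TPM + 1) over the 94 cells was 0.57 among 120 pairs of mitosis genes and 0.37 among 136 pairs of replication genes. It was 0.09 among 272 pairs with 1 gene of each set. Ccnb1 and Ccnb2 had the highest value of all pairs within the mitosis set, 0.86, and Mcm5 and Uhrf1 the highest within the replication set, 0.64. Top2a and Rrm2 had the highest value across the sets, 0.52. These are descriptions over cells that differ in the number of genes detected, and no p is given.

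Genes outside the 33 whose levels followed the counts most closely were ranked among 8844 genes on in at least 5 cells. With the mitosis count the highest were Cdca8 (Pearson 0.89), Fam64a (0.82), Kif20a (0.81), Cdca3 (0.81), Ckap2l (0.79), Racgap1 (0.78), Sgol1 (0.77), Kif4 (0.76), Casc5 (0.75) and Spag5 (0.75). Cdca8, a partner of Aurkb and Birc5, was on in 10 of the 13 mitosis-high cells and in 0 of 63 cells high in neither set. With the replication count the highest included Dtl (0.72), Lig1 (0.71), Cdca7 (0.68), Tipin (0.63), Tk1 (0.62), Dnajc9 (0.60), Prim1 (0.59), Gars (0.58) and Dctpp1 (0.57). The number of genes above 0 in a cell had 0.67 with that count, above the values of Tipin and the genes listed after it. With the mitosis count it had 0.52. Lig1, which joins Okazaki fragments, was on in 14 of 18 replication-high only cells and in 5 of the 63.

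Other genes of both pathways, from lists that the state rule did not use, moved with the states. Of 54 other mitosis genes, the median cell had 4 on when high in neither set, 8.5 when replication-high only, 26 when high in both and 32 when mitosis-high only. Bub1b, Ckap2l and Cdca8 were on in 10 of 13 mitosis-high cells each and in 0 of 63 cells high in neither set (up to 4.76%), and Cks2, a CDK subunit, in 11 of 13 and 9 of 63. Of 56 other replication genes the medians were 8, 25, 28 and 11.5, while their summed level had medians of 4005, 11374, 18379 and 12393 TPM. The mitosis-high only cells were thus nearer to the cells high in neither set by the number of these genes and nearer to the replication-high only cells by their summed level. Ezh2, Dnmt1, Gmnn and Fen1 were on in 12, 11, 9 and 9 of the 13 mitosis-high cells and in 15, 15, 2 and 6 of the 63. The 4 origin and licensing genes known to be present in G0 had a median of 1 gene on in every state. Their summed level was not as even, with medians of 18.3, 135, 32.8 and 277 TPM in the same order of states.

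Genes of G1 and quiescence showed a smaller range. Of 26 measured genes, the median number on was 8 in cells high in neither set, 10 in replication-high only cells, 11 in cells high in both and 8.5 in mitosis-high only cells. The number of all genes on had medians of 2115, 2889, 3147 and 2668 in the same order, so this rise was not particular to the G1 and quiescence genes. Under the naming rule, Btg2, Cdk2, Cdkn2d and E2f4 were on in 8, 7, 7 and 6 of 13 mitosis-high cells and in 20, 17, 19 and 12 of the 63. Myc and Cdk6 are named after their values were seen. Myc was on in 17 of 18 replication-high only cells, 39 of 63 cells high in neither set and 4 of 13 mitosis-high cells, and Cdk6 in 7, 1 and 2.

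Markers of the sorted cells were present in all states. Of 9 stem cell markers the median number on was 4, 3.5, 4 and 3 in the order of the states, while their summed level had medians of 2528, 1548, 1361 and 803 TPM. Procr, the endothelial protein C receptor of long-term stem cells, is 1 of these 9 markers and was chosen after its values were seen. It was on in 23 of 63 cells high in neither set, in 1 of 18 replication-high only cells and in 0 of 13 mitosis-high cells (up to 23.1%). By number of genes on, Procr does not stand for the list, whose median stayed between 3 and 4. The summed level of the list, which includes Procr, was lower in the high states, as given above. Among 6 erythroid markers, Car2 was on in all 94 cells and made up nearly all of the summed erythroid level, with medians of 3101, 2976, 3441 and 3683 TPM compared with 3101, 3060, 3495 and 3683 TPM for the sum. Gata1 was on in 0, 4 and 4 cells of the states named for Procr, Klf1 in 0, 2 and 0, Epor in 1, 3 and 0, Car1 in 1, 0 and 0, and Hbb-b1 in none. The 5 megakaryocyte markers had medians of 1, 2, 2 and 1 gene on, with summed medians of 187, 598, 267 and 354 TPM. Of 6 myeloid markers, Lyz2 was on in 56 of 94 cells and Prtn3 in 57. Lyz2 was on in 36 of the 63 cells high in neither set, 12 of the 18 replication-high only cells and 8 of the 13 mitosis-high cells, and Prtn3 in 41, 10 and 6, while the summed myeloid level had medians of 436, 135, 441 and 180 TPM in the order of the states. The other myeloid markers, Mpo, Elane, Ctsg and Csf1r, the lymphoid genes Dntt and Il7r, and Cd48, which the gate excludes, were on in 0 of 94 cells (up to 3.19%). The part of these genes in the states was not tested.

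The share of cells in each state was alike in the genotypes within counting error. Of 46 Ski-KO cells, 30 (65.2%, interval 49.8 to 78.6) were high in neither set, 14 (30.4%, 17.7 to 45.8) were replication-high and 6 (13.04%, 4.94 to 26.3) were mitosis-high. Of 48 Ski-WT cells these were 33 (68.8%, 53.7 to 81.3), 13 (27.1%, 15.3 to 41.8) and 7 (14.6%, 6.07 to 27.8). Intervals of this width do not show that the shares were equal.

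The shares of the Ski-KO prefixes, which have the same genotype, lay further apart than those of the genotypes. Replication-high only cells were 3 of 27 (11.1%, interval 2.35 to 29.2) in prefix 051716 and 7 of 19 (36.8%, 16.3 to 61.6) in prefix 051816, with 8 of 48 (16.7%, 7.48 to 30.2) in the Ski-WT cells. For mitosis-high cells the order was turned, with 5 of 27 (18.5%, 6.3 to 38.1) in prefix 051716 and 1 of 19 (5.26%, 0.133 to 26.03) in prefix 051816. All of these intervals overlap. The median number of genes at 5 TPM or more was 2094 in prefix 051716, 2288 in prefix 051816 and 2416 in the Ski-WT cells. The part of detection depth in these shares was not tested.

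**Figure D4:**
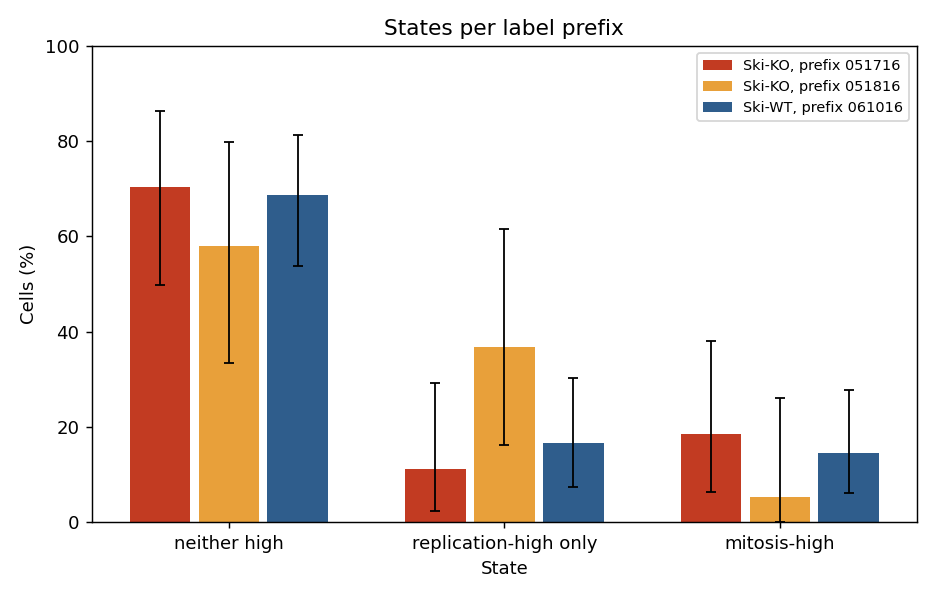
Share of cells (vertical axis, percent) high in neither set, replication-high only and mitosis-high, for the 27 and 19 Ski-KO cells of the prefixes 051716 and 051816 and the 48 Ski-WT cells. Error bars are exact Clopper-Pearson 95% intervals, and those of the 3 prefixes overlap in every state.

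Levels were compared between genotypes as the mean of log2(TPM + 1) over Ski-KO cells minus that over Ski-WT cells. Of the 6240 genes with a value above 0 in 25% or more of either genotype's cells, 2.08% were higher by 1 or more in the Ski-KO cells and 11.8% were lower by 1 or more, and the median difference was -0.22. Of the 33 members, 24 passed that filter, 15 of replication and 9 of mitosis, and with or without it 0 of 33 differed by 1 or more in either direction. That count depends on the scale. As a log2 ratio of linear means, which gives high cells more weight, 3 members were higher by 1 or more (Mki67, Bub1 and Ung) and 9 lower (Top2a, Ccnb2, Aurkb, Plk1, Nusap1, Tpx2, Ube2c, Mcm3 and Cdc6), and with a pseudocount of 0.1 TPM 4 were lower (Aurkb, Ube2c, Mcm3 and Mcm7). The median difference was -0.05 over the 17 replication genes and -0.26 over the 16 mitosis genes. Over the members that passed the filter, as the background genes did, it was -0.12 for the 15 replication genes and -0.18 for the 9 mitosis genes. In prefix 051716 the medians over all 17 and all 16 genes were -0.35 and -0.20, and in prefix 051816 they were 0.29 and -0.39. The median of the 6240 genes was -0.27 in prefix 051716 and -0.20 in prefix 051816. The replication median changed sign between the Ski-KO prefixes and was 0.17 after quantile normalization of the cells. The mitosis median, like that of the 6240 genes, was below 0 in both prefixes. After that normalization the mitosis median was -0.16. With detected genes per cell as a covariate both medians were above 0, at 0.61 for replication and 0.15 for mitosis. Of the 33 members, 10 kept the sign of their difference in every alternative, Bub1, Rrm2 and Hells above 0 and Ccnb1, Cdk1, Aurkb, Plk1, Ube2c, Mcm3 and Cdc6 below it, and the directions given for the other members turned in at least 1. Both prefixes were below the Ski-WT cells for 14 of the 33 members (42.4%, compared with 44.3% of the 6240 genes) and above them for 3 (9.09%, compared with 18.5%). For members that passed the filter, both were below for 5 of 15 replication genes (33.3%) and 5 of 9 mitosis genes (55.6%). They were above for 1 gene of each set. The prefixes share the Ski-WT cells as their reference.

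**Figure D5:**
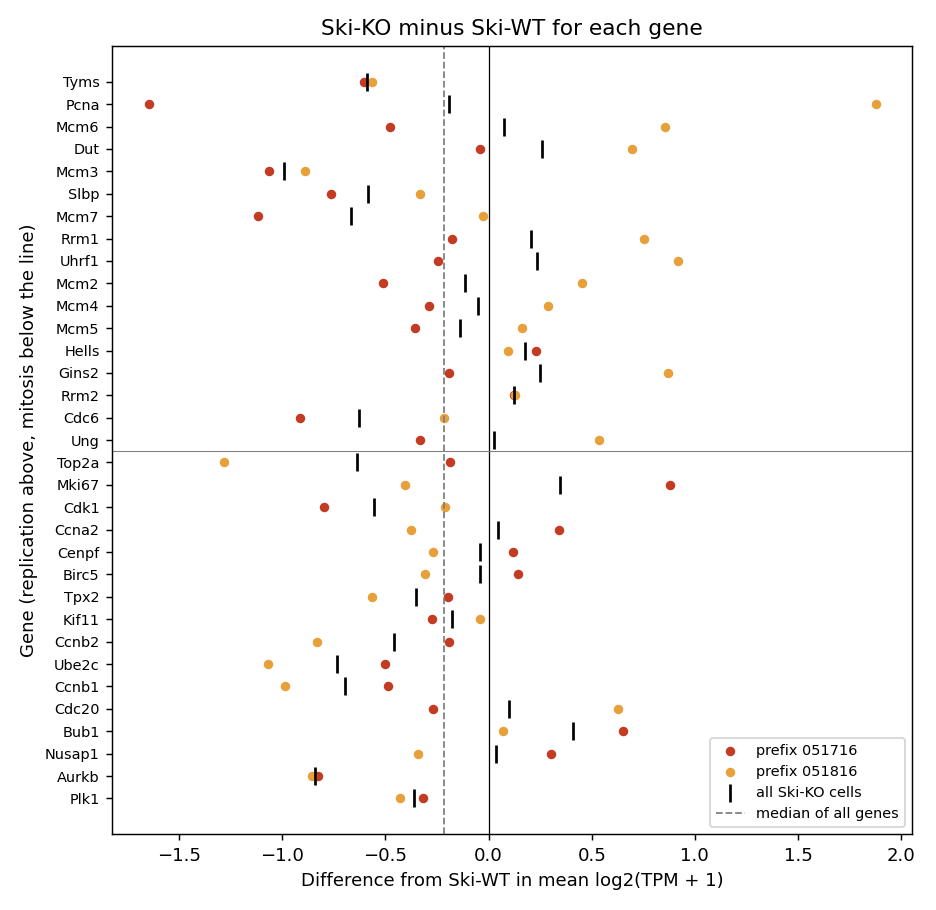
Mean log2(TPM + 1) minus that of the Ski-WT cells (horizontal axis) for each gene (vertical axis), for all Ski-KO cells and for each of their label prefixes, with a dashed line at the median of all 6240 genes, -0.22. The points of Pcna lie at -1.65 and 1.88, the widest gap between the prefixes, and no bar for all Ski-KO cells passes 1 in either direction.

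Pcna had the widest gap between the Ski-KO prefixes. Its levels ran from 0 to 2588 TPM with a median of 0.91 in prefix 051716, from 0 to 1767 with a median of 473 in prefix 051816 and from 0 to 1213 with a median of 114 in the Ski-WT cells. All 3 ranges overlap fully at the low end, and the prefixes lie on either side of the Ski-WT cells. It was on in 12 of 27 (44.4%, interval 25.5 to 64.7), 15 of 19 (78.9%, 54.4 to 93.9) and 29 of 48 cells (60.4%, 45.3 to 74.2). Pooled, the difference was -0.19, which hides values of -1.65 and 1.88.

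Mcm3 had the lowest difference of the 33, -0.99, with -1.06 and -0.89 in the prefixes 051716 and 051816. It was on in 9 of 27, 8 of 19 and 23 of 48 cells, and its levels overlapped, from 0 to 1427 TPM in the Ski-KO cells (median 0.68) and from 0 to 2236 in the Ski-WT cells (median 3.34). Mcm7 differed by -0.67, with -1.12 and -0.03, and Mcm6 by 0.07, with -0.48 and 0.86, so subunits of the same ring ranged from -0.99 to 0.07. Slbp (-0.59), Tyms (-0.59) and Cdc6 (-0.63) were lower in both prefixes, while Hells (0.17) and Rrm2 (0.12) were higher in both. Dut had the highest difference of the replication genes, 0.26. Uhrf1 (0.23), Gins2 (0.25), Rrm1 (0.21) and Ung (0.03) were lower in prefix 051716 and higher in prefix 051816, as were Mcm2 (-0.12), Mcm4 (-0.05) and Mcm5 (-0.14).

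Among mitosis genes the differences rested on few cells. The summed mitosis level had a mean of 413 TPM in the Ski-KO and 835 TPM in the Ski-WT cells, but medians of 6.37 and 7.13. The 3 highest Ski-WT cells, 26, 34 and 16, held 81.5% of the Ski-WT sum, and the 3 highest Ski-KO cells held 52.2% of theirs. For the replication genes these shares were 18.4% and 23.6%, with means of 1874 and 1854 TPM.

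Aurkb had the lowest difference of the mitosis genes, -0.84, followed by Ube2c (-0.74), Ccnb1 (-0.70) and Top2a (-0.64). Bub1 (0.41) and Mki67 (0.35) had the highest. Mki67 was on in 7 of 27 cells of prefix 051716, 1 of 19 of prefix 051816 and 7 of 48 Ski-WT cells, with differences of 0.88 and -0.41. Cdk1 (-0.56), Ccnb2 (-0.46), Plk1 (-0.36), Tpx2 (-0.35) and Kif11 (-0.18) were lower in both prefixes. Ccna2 (0.05), Nusap1 (0.04), Birc5 (-0.04) and Cenpf (-0.04) were higher in prefix 051716 and lower in prefix 051816, and Cdc20 (0.10) was lower in the first and higher in the second. Of the lists outside the members, the 54 other mitosis genes had a median of -0.22 and the 56 other replication genes one of -0.07.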

How the data were processed

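The authors deposited 1 table of log2(TPM + 1) values for 13244 genes and 94 cells, 1 column per cell. That unit was taken from the values, since undoing the log gave sums between 997625 and 999995 per cell. Bowtie2, RSEM and the build mm9 are named without roles or versions, per the submitters' processing notes. No read counts were used here, so depth is given as genes detected. Values were turned back to TPM, and a gene was on at 5 TPM or more. Genotypes came from the labels, and no test was made, because each genotype is 1 sample. Differences used a pseudocount of 1, and the background was the genes with values above 0 in 25% or more of either genotype's cells. All members are named. Other genes named are at most 4 per list, by the gap in share between mitosis-high and neither, and the 10 highest correlates of each count. Named outside that rule are Procr, Myc and Cdk6, picked after their values were seen, the erythroid and myeloid markers, Dntt, Il7r, Cd48, Cd34 and Flt3. A correlate of the replication count is not reported here. Members and lists were chosen with earlier results of these data known. Promoters are RefSeq, GRCm38.p6, a build other than that of the files. The scripts ran under scipy 1.17.1, pandas 2.3.3, numpy 2.4.6, matplotlib 3.10.9 and Python 3.11.15 and were tested on simulated data. Alternatives covered detection limits, state limits, pseudocounts, scalings, single prefixes, single cells and detected genes as a covariate.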

Additional observations from a re-analysis of the deposited data

How the results depend on the processing

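Counts of states depended on the detection limit and the state limit. With any value above 0 counted as on, mitosis-high cells numbered 25 Ski-KO and 24 Ski-WT, and replication-high cells 20 and 21. At 1 or 10 TPM the counts stayed within 1.5 times. With the mitosis limit at an eighth of the genes they were 10 and 11, and at 50% they were 4 and 4. Among the 1500 highest genes of each cell, an alternative chosen after seeing the data, as was leaving out Tyms, mitosis-high cells numbered 5 and 4 and replication-high cells 6 and 7. That alternative was stricter than 5 TPM in most cells, so it does not separate depth from the limit. Median differences were held against the gap between the medians of the Ski-KO prefixes. With detected genes per cell as a covariate, the medians were 0.61 (replication) and 0.15 (mitosis), while that of all genes was -0.07. As a log2 ratio of linear means the mitosis median was -0.93. The cause was not tested. The scalings moved the median of all genes from -0.22 to between -0.22 and -0.01, the last by quantile normalization, where the replication median was 0.17 and the mitosis median -0.16. Of 330 recomputed member differences, 51 moved by more than the prefix gap and 53 had the other sign, and 10 of the 33 members kept their sign throughout (Bub1, Rrm2 and Hells higher, and Ccnb1, Cdk1, Aurkb, Plk1, Ube2c, Mcm3 and Cdc6 lower). Members past a difference of 1 in either direction numbered 0 to 12 over the alternatives. Genes lower by 1 or more numbered 753 without a filter and 738 with it. Cells, not animals, limit all of these values.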
